A study of Homo sapiens with 15 samples.

Results

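The 9 genes described here encode secreted factors that act on neurons or on vessels, namely BDNF, NTF3, GDNF, CNTF, SERPINF1, VEGFA, VEGFC, ANGPT1 and ANGPTL4. They were matched by gene symbol, with earlier results of these data known, and are 9 of the 19684 genes in the tables. Poly(A) RNA-seq had been done on 15 libraries, 3 for each of 5 groups, all of BC1-GFP, a human induced pluripotent stem cell (hiPSC) line that carries a green fluorescent reporter and that the labels give as wild type. The groups were undifferentiated hiPSCs, the neural retina (NR) layers of retinal organoids (ROs) at 70 and 150 days after induction (D70-ROs and D150-ROs), and cells labelled as Müller glial cells (iMGCs), which were grown out of the NR layers of D150-ROs in medium with serum and collected on day 5 of passage 1 (P1 iMGCs) or passage 5 (P5 iMGCs). The labels name no drug or mutation in any group. An RO library pooled NR layers of several organoids, and the iMGCs descend from the few primary cells of late ROs that survived plating, so that 1 cell line and a limited number of founder cells stand behind the groups.

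Müller glia span the retina and are known to supply its neurons with trophic factors and to act on retinal vessels. The neurotrophins BDNF and NTF3 bind tropomyosin receptor kinases and NGFR, GDNF signals through RET with a GFRA co-receptor, and CNTF through CNTFR together with LIFR and IL6ST. VEGFA and VEGFC act on the receptor kinases FLT1, KDR and FLT4 with neuropilins as co-receptors, angiopoietins act on TEK, ANGPTL4 inhibits lipoprotein lipase, and SERPINF1 encodes pigment epithelium-derived factor (PEDF), which supports photoreceptors and restrains vessel growth.

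Levels are given as FPKM, scaled by the authors to transcript length and mapped fragments, so that levels of different genes can be set side by side. The iMGC libraries came in another table than the hiPSC and D70-RO libraries, and levels set across the tables rest on each library's own scaling. Differences were tested on the expected counts with edgeR's quasi-likelihood test and TMM factors, which centre the bulk of the genes of each pair of groups on no change, across all genes that reached 1 FPKM in at least 3 of the libraries compared, and a gene was called where its adjusted p was under 0.05 and its change at least 2-fold. Library totals ran from 11349600 to 20398755 expected counts, with the lowest in D70-RO replicate 2. The sources differ on whether 2 or 3 independent experiments were made with hiPSCs and ROs and on how many companies handled the samples, so p-values may measure technical spread only, and any batch shared by the libraries of 1 group cannot be told apart from that group.

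The labelled cell types were checked against marker genes. Photoreceptor genes summed to 675 to 681 FPKM in D150-RO libraries and to at most 0.56 FPKM in iMGC libraries. Of 7 Müller glia markers, 6 had a mean of at least 1 FPKM in D150-ROs, 3 in P1 iMGCs and 4 in P5 iMGCs. RLBP1, the retinaldehyde carrier of Müller glia, stood at 33.5 ± 3.66 FPKM (mean ± SD, n = 3) in D150-ROs and was listed at 0 in all P1 libraries, KCNJ10, a potassium channel, went from 3.77 ± 0.338 FPKM to 3 expected counts in the P1 libraries together, and AQP4, at 0.193 ± 0.0451 FPKM in D150-ROs, was listed at 0 in all iMGC libraries. SOX9, a glial transcription factor, held 42.6 ± 3.81 FPKM in D150-ROs, 5.21 ± 0.252 at P1 and 3.59 ± 0.164 at P5, and GLUL, the glutamine synthetase, held 100.2 ± 2.37, 13.4 ± 1.18 and 14.6 ± 0.720 FPKM. VIM, an intermediate filament gene of many cell types, held most of the sum, with 2858 ± 50.6 FPKM at P5. SLC1A3, a glutamate transporter gene, went from 28.0 FPKM in D150-ROs to 0.373 FPKM at P1 and 1.19 FPKM at P5. Of the 7 markers, RLBP1, AQP4 and KCNJ10 were thus at or near 0 in the cells labelled as Müller glia, and SLC1A3 was low. SOX9, GLUL and VIM were present, with SOX9 and GLUL called lower than in D150-ROs and VIM called higher. Pericyte and mesenchyme markers summed to 35.6 to 41.8 FPKM in D150-RO libraries, 2332 to 2431 FPKM in P1 and 2641 to 2905 FPKM in P5 iMGC libraries, with 6, 7 and 6 of 8 markers at a mean of at least 1 FPKM and none at 0. COL1A1 held most of the iMGC sums, with means of 2000 FPKM at P1 and 2216.5 FPKM at P5. PDGFRA went from 6.30 FPKM in D150-ROs to 0.107 FPKM at P1, while the other markers of this list were called higher at P1. In hiPSC libraries the sum was 332 to 387 FPKM. These sums differed in the same comparisons as the members described below, and their part in those differences was not tested. In bulk RNA, fewer cells of a type and less RNA per cell cannot be told apart.

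The factors split by group. BDNF, GDNF, VEGFC and ANGPTL4 were highest in iMGCs, SERPINF1 was highest in D150-ROs and low in iMGCs, VEGFA was abundant in every group, with an order of D150-ROs and iMGCs that depended on the scaling, and NTF3, CNTF and ANGPT1 were low throughout. In D150-ROs the levels ran from 0.0233 FPKM for GDNF to 108 FPKM for SERPINF1, and in P1 iMGCs from 0.263 FPKM for CNTF and ANGPT1 to 35.0 FPKM for VEGFA.

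**Figure D1:**
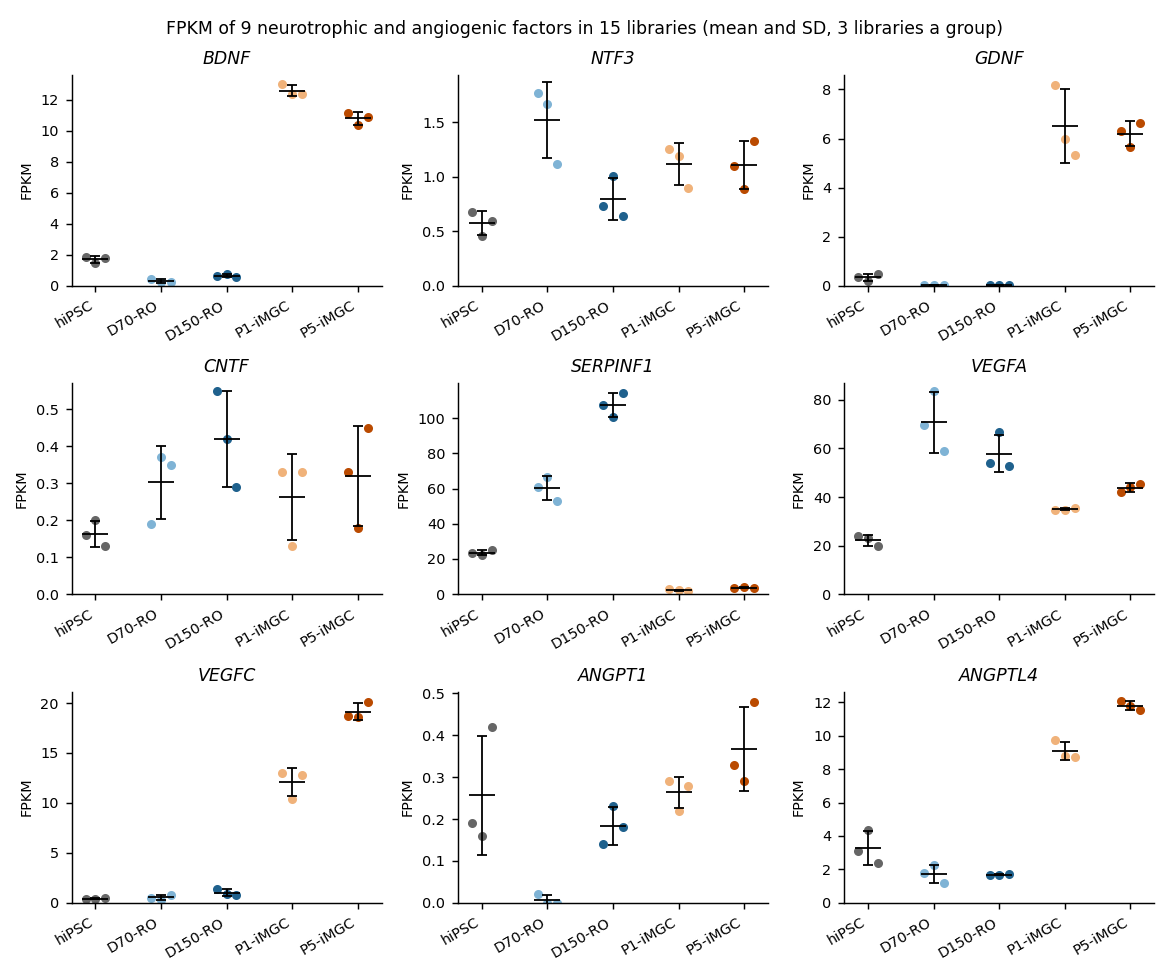
FPKM (vertical axes) of the 9 genes in every library, with 1 point per library, the group mean as a horizontal line and the SD over 3 libraries as a bar. BDNF, GDNF, VEGFC and ANGPTL4 stand highest in the iMGC groups, SERPINF1 and VEGFA in the RO groups, and CNTF and ANGPT1 stay at or under 0.55 FPKM in all libraries.

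The promoters of BDNF, GDNF, VEGFC and ANGPTL4 are shown because these 4 members rose in iMGCs at both passages under every scaling tried. RefSeq (GRCh38.p14) lists a promoter, from 250 bases before to 50 after a gene's start, 5 times for BDNF and 4 times for GDNF, of which the first is printed, and 1 time each for VEGFC and ANGPTL4. Gene-level counts cannot tell which start was used. Capitals mark matches, on either strand, to 4 short motifs, namely the hypoxia-inducible factor core ACGTG, the AP-1 site TGANTCA, the Sp1 box GGGCGG and the TATA box TATAAA, of which no match overlaps a match to another motif in these windows. They lie at chr11:27721981-27722280 (minus strand) for BDNF, chr5:37839992-37840291 (minus) for GDNF, chr4:176792873-176793172 (minus) for VEGFC and chr19:8363905-8364204 (plus) for ANGPTL4.
BDNF: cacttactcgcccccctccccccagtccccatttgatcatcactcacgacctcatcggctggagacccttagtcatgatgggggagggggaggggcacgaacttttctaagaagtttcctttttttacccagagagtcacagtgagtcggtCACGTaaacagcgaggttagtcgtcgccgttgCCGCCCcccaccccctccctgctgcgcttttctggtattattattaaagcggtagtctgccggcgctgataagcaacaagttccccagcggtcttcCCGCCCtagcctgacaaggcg
GDNF: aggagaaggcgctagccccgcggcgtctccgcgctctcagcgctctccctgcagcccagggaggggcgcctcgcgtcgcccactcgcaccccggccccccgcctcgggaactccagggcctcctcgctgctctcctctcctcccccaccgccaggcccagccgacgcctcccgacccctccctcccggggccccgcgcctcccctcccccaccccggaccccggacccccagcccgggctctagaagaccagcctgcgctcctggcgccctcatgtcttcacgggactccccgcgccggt
VEGFC: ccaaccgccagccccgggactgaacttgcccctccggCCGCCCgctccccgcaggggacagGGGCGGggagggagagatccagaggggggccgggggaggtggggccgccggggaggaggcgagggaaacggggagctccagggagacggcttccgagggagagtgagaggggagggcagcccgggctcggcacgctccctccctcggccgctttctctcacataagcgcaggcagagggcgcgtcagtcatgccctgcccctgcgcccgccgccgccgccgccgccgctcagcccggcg
ANGPTL4: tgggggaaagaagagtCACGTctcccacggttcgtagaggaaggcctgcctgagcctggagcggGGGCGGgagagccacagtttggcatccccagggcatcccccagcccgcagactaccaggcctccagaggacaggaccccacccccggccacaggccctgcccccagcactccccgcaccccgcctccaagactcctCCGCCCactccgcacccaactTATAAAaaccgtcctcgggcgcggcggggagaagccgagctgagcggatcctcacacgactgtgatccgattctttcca
The ACGTG core was found in the BDNF window, beginning 99 bases before the start, and in the ANGPTL4 window, beginning 234 bases before it. Sp1 boxes were found 2 times in each of the BDNF, VEGFC and ANGPTL4 windows, and a TATA box in the ANGPTL4 window only, beginning 29 bases before the start. The printed GDNF window held none of the 4 motifs and no printed window held an AP-1 site. Of the windows not printed, BDNF starts 2 and 4 held the ACGTG core 2 times each, BDNF start 3 held 2 Sp1 boxes, and GDNF start 4 held 1 ACGTG core and 1 Sp1 box, so that what is found depends on the start. Of all 35116 promoters listed, 21.4% hold the ACGTG core, 7.71% an AP-1 site, 45.0% an Sp1 box and 11.5% a TATA box.

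BDNF, the neurotrophin that binds NTRK2 (chromosome 11, 27654893 to 27722058, minus strand, GRCh38 in GENCODE 29), had 1.86, 1.44 and 1.82 FPKM in the hiPSC libraries, 0.43, 0.22 and 0.25 FPKM in D70-ROs and 0.61, 0.77 and 0.56 FPKM in D150-ROs. The P1 iMGC libraries held 13.0, 12.4 and 12.4 FPKM and the P5 libraries 11.1, 10.3 and 10.9 FPKM. All 5 groups were apart, in the order D70-ROs, D150-ROs, hiPSCs, P5 iMGCs and P1 iMGCs from low to high. Against hiPSCs, BDNF fell by 2.62 ± 0.27 (log2 change ± SE) in D70-ROs (edgeR adjusted p = 5.67e-06) and by 1.71 ± 0.19 in D150-ROs (adjusted p = 3.74e-06). From D150-ROs to P1 iMGCs it rose by 4.88 ± 0.10 on the log2 scale (adjusted p = 5.10e-16), and the mean FPKM was 19.5 times as high. At P5 the rise over D150-ROs was 4.72 ± 0.11 (adjusted p = 5.23e-16), with a mean FPKM 16.7 times as high. BDNF passed the filter against D150-ROs only through the iMGC libraries, so that it had to differ to be tested there. BDNF-AS lies antisense to BDNF and is not in the tables, and whether the counting used strand is not given in the sources used here.

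NTF3, the neurotrophin that binds NTRK3 (chromosome 12, 5432112 to 5521536, plus strand), stayed between 0.46 and 1.77 FPKM in all libraries. Its libraries held 0.68, 0.46 and 0.59 FPKM in hiPSCs, 1.77, 1.67 and 1.12 FPKM in D70-ROs and 0.73, 1.01 and 0.64 FPKM in D150-ROs. The P1 libraries had 1.26, 1.19 and 0.90 FPKM and the P5 libraries 1.10, 0.89 and 1.33 FPKM. Every group overlapped its neighbour in the order of the means, and D70-ROs had the highest mean with 1.52 ± 0.350 FPKM. NTF3 rose by 1.25 ± 0.35 (log2) from hiPSCs to D70-ROs (edgeR adjusted p = 0.00679). It fell by 1.14 ± 0.31 from D70-ROs to D150-ROs (adjusted p = 0.00886), a call that was lost when library totals, a scaling chosen after the data had been seen, took the place of TMM factors (-0.92). The calls of a rise from D150-ROs to P1 iMGCs (1.22 ± 0.31, adjusted p = 0.00184) and to P5 iMGCs (1.26 ± 0.32, adjusted p = 0.00161) were lost in the same way, with 0.58 (adjusted p = 0.0924) and 0.56 (adjusted p = 0.110). The FPKM of D150-ROs and iMGCs overlapped, and behind these values stood 47 expected counts in the D150-RO libraries together and 73 in the P1 libraries.

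Of 6 receptors, 4 were tested between D150-ROs and P1 iMGCs, of which SORT1 rose and NGFR and NTRK2 fell. Of all genes, 20% were called higher and 24.1% lower there. With library totals 0 receptors were called higher and 3 lower, since SORT1 then stayed under 2-fold (0.66) and SORCS2 passed (-1.25). NGFR and NTRK2 passed the filter only through the D150-RO libraries, so that they had to differ to be tested. NGFR, which all neurotrophins share, went from 38.0 ± 1.28 FPKM in D150-ROs to 0.0467 ± 0.0306 FPKM in P1 iMGCs, a fall of 8.97 ± 0.15 on the log2 scale. NTRK2, the BDNF receptor kinase, rose by 6.75 ± 0.28 from hiPSCs to D70-ROs, held 3.52 ± 0.279 FPKM in D150-ROs, and fell by 3.96 ± 0.17 to P1 and by 4.43 ± 0.17 to P5 iMGCs. NTRK3 had 0.810 ± 0.157 FPKM in D150-ROs and 1.56 ± 0.151 FPKM in P5 iMGCs, a difference of 0.94 ± 0.21 that stayed under 2-fold. SORT1, a sorting receptor for proneurotrophins, rose by 1.31 ± 0.04 to 35.3 ± 0.380 FPKM at P1. Its relative SORCS2 differed from D150-ROs by -0.60 ± 0.06 at P1, under 2-fold, and fell by 1.48 ± 0.07 at P5. NTF4, another neurotrophin, with 1 expected count in the D150-RO libraries together, held 1.28 ± 0.167 FPKM at P1.

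GDNF, a survival factor for dopaminergic and other neurons (chromosome 5, 37812677 to 37839686, minus strand), was nearly absent from ROs. The hiPSC libraries held 0.34, 0.19 and 0.48 FPKM, the D70-RO libraries 0.01, 0.02 and 0.03 FPKM and the D150-RO libraries 0.02, 0.03 and 0.02 FPKM. In P1 iMGCs it stood at 8.20, 5.97 and 5.32 FPKM and in P5 iMGCs at 6.32, 5.66 and 6.63 FPKM. The iMGC passages overlapped each other and lay above all other libraries, the RO stages overlapped each other, and hiPSCs lay between. These levels rest on 36 expected counts in hiPSCs, 4 in each RO group, 954 in P1 and 1002 in P5 iMGCs. The ratio of counts per library total was 7.84 (log2, 95% interval 6.48 to 9.72) for P1 iMGCs over D150-ROs and 7.92 (6.56 to 9.80) for P5 iMGCs, where the intervals cover counting error only. edgeR gave a rise of 8.33 ± 0.24 at P1 (adjusted p = 2.79e-14) and of 8.46 ± 0.23 at P5 (adjusted p = 5.43e-15), and GDNF, too, passed the filter through the iMGC libraries alone. In the comparisons without iMGCs it stayed under the filter, with a count ratio of -2.89 (log2, -4.85 to -1.41) for D70-ROs over hiPSCs and -2.87 (-4.82 to -1.39) for D150-ROs over hiPSCs. Without the filter edgeR called GDNF lower in both (-2.94 and -3.11). GDNF-AS1 lies antisense to the gene and is not in the tables.

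GFRA1, the co-receptor that binds GDNF, rose as well, from 9.66 ± 0.412 FPKM in D150-ROs to 22.7 ± 0.0404 FPKM in P1 and 42.5 ± 1.33 FPKM in P5 iMGCs, by 1.92 ± 0.05 and 2.87 ± 0.05 on the log2 scale. GFRA2, the neurturin co-receptor, rose by 1.76 ± 0.17 at P1. RET, the receptor kinase of the family, was highest in hiPSCs with 5.31 ± 0.303 FPKM, fell by 3.31 ± 0.20 from there to D70-ROs, and held 0.0733 ± 0.0513 FPKM in P1 iMGCs, under the filter. NCAM1, an adhesion molecule that can also bind GDNF, had 201 ± 9.09 FPKM in D150-ROs and fell by 4.83 ± 0.07 at P1 and by 3.97 ± 0.07 at P5. Of the other ligands of the family, NRTN fell by 5.37 ± 0.45 at P1. From hiPSCs to D70-ROs, ARTN fell by 4.44 ± 0.32 and PSPN rose by 1.15 ± 0.21.

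CNTF, a cytokine that sustains photoreceptors and ganglion cells (chromosome 11, 58622673 to 58625733, plus strand), stayed under the filter in all 6 comparisons. It stood at 0.16, 0.20 and 0.13 FPKM in the hiPSC libraries, at 0.19, 0.37 and 0.35 FPKM in the D70-RO libraries and at 0.55, 0.42 and 0.29 FPKM in those of D150-ROs. The iMGC libraries held 0.33, 0.13 and 0.33 FPKM at P1 and 0.33, 0.18 and 0.45 FPKM at P5. All groups that neighbour each other in the order of the means overlapped. The count ratio of D150-ROs over hiPSCs was 1.38 (log2, 95% interval 0.53 to 2.28, counting error only) on 38 and 18 expected counts. For this pair edgeR with TMM factors and no filter gave 1.01 (adjusted p = 0.117), not called. The count ratio of P1 iMGCs over D150-ROs was -0.66 (-1.45 to 0.11) per library total and -0.019 in edgeR with TMM factors and no filter. That of P5 over P1 iMGCs was 0.27 (-0.55 to 1.09). No difference between D150-ROs and P1 iMGCs or between the passages was detectable at this depth. CNTF lies within the read-through gene ZFP91-CNTF, which is not in the tables, so that reads could be split between them. ZFP91, the other gene of that read-through, held 10.9 ± 0.511 FPKM in hiPSCs, 47.5 ± 1.01 in D150-ROs and 23.2 ± 0.265 in P1 iMGCs.

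CNTFR, the receptor chain that makes cells respond to CNTF, had 96.3 ± 25.0 FPKM in D70-ROs and 36.7 ± 2.81 FPKM in D150-ROs, and fell by 8.61 ± 0.19 on the log2 scale to 0.0633 ± 0.0306 FPKM in P1 iMGCs. The shared chains were not called, with 40.8 ± 1.07 FPKM of IL6ST in D150-ROs and 47.6 ± 1.54 in P1 iMGCs, and 5.65 ± 0.412 and 3.59 ± 0.204 FPKM of LIFR. OSMR, the oncostatin M receptor, rose by 6.54 ± 0.09 at P1 and 6.97 ± 0.09 at P5. Of 7 other cytokines of the family, 4 were tested at P1 and 5 at P5, and all of those rose over D150-ROs, where 20% and 20.8% of all genes were called higher. LIF went from 6.00 ± 1.64 FPKM in D150-ROs to 77.3 ± 4.65 at P1 and 62.1 ± 2.37 at P5, IL11 rose by 2.64 ± 0.12 at P1, and CLCF1, which can replace CNTF at its receptor, rose by 2.29 ± 0.13. IL6 had no count in D150-ROs, 0.603 ± 0.248 FPKM at P1 and 3.31 ± 0.495 FPKM at P5, and rose by 2.66 ± 0.32 between the passages. Against D150-ROs and between the passages it passed the filter only through P5 libraries, so that it had to differ to be tested.

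SERPINF1 (chromosome 17, 1761959 to 1777574, plus strand) rose from hiPSCs to ROs and fell from D150-ROs to iMGCs, in each case opposite to BDNF. Its libraries held 23.2, 22.3 and 25.3 FPKM in hiPSCs, 60.7, 66.5 and 53.1 FPKM in D70-ROs and 107, 101 and 114 FPKM in D150-ROs. In P1 iMGCs they held 2.71, 2.23 and 2.02 FPKM and in P5 iMGCs 3.36, 4.13 and 3.71 FPKM. All 5 groups were apart, in the order P1 iMGCs, P5 iMGCs, hiPSCs, D70-ROs and D150-ROs from low to high. SERPINF1 rose by 1.22 ± 0.13 (log2) from hiPSCs to D70-ROs (edgeR adjusted p = 6.41e-06) and by 1.85 ± 0.09 from hiPSCs to D150-ROs (adjusted p = 1.12e-09). The difference of 0.64 ± 0.11 between the RO stages stayed under 2-fold (adjusted p = 0.000686). It fell by 4.89 ± 0.09 from D150-ROs to P1 iMGCs (adjusted p = 9.09e-17) and by 4.12 ± 0.09 to P5 iMGCs (adjusted p = 1.63e-16), with a mean FPKM 46.3 and 28.8 times as high in D150-ROs. Photoreceptor markers were lost in the same step, as given above. The 6 pigment epithelium markers, of another cell type known to make PEDF, summed to 24.7 to 31.5 FPKM in D150-RO libraries and to 4.37 to 5.83 FPKM in iMGC libraries, with TYR listed at 0 in D150-ROs. TTR held most of the D150-RO sum, with a mean of 21.75 FPKM. At both passages TTR, BEST1 and PMEL were called lower and MITF higher (2.16 ± 0.14 at P1). The sum was larger in hiPSC libraries (120 to 138 FPKM) and D70-RO libraries (86.4 to 142 FPKM), where SERPINF1 was lower than in D150-ROs. PMEL alone held most of those larger sums, with means of 127 FPKM in hiPSCs and 102 FPKM in D70-ROs. Of the 6 markers, 1 had a mean of at least 1 FPKM in hiPSCs, where RPE65 and TYR were listed at 0. In D70-ROs and in D150-ROs 4 of them did. The part of photoreceptors or pigment epithelium in the fall of SERPINF1 was not tested.

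Of 5 PEDF receptors, PLXDC1 fell by 6.16 ± 0.19 on the log2 scale, as its ligand did, from 14.5 ± 1.24 FPKM in D150-ROs to 0.170 ± 0.184 FPKM at P1. PNPLA2, a lipase that binds PEDF, rose by 1.45 ± 0.08 at P1 and 1.43 ± 0.08 at P5. LRP6, PLXDC2 and RPSA were not called against D150-ROs at either passage. RPSA, a laminin receptor and ribosomal protein, was the most abundant of them with 529 ± 24.9 FPKM in D150-ROs and 672 ± 10.9 FPKM at P1.

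VEGFA, the main angiogenic factor of the retina (chromosome 6, 43770184 to 43786487, plus strand), held 23.9, 23.1 and 19.7 FPKM in the hiPSC libraries, 69.5, 83.7 and 58.8 FPKM in the D70-RO libraries and 53.9, 66.6 and 53.0 FPKM in those of D150-ROs. In P1 iMGCs it held 34.7, 34.8 and 35.5 FPKM and in P5 iMGCs 41.9, 44.3 and 45.6 FPKM. The RO stages overlapped, hiPSCs were lowest, and P1 and P5 iMGCs lay between in this order, each group apart from the next. VEGFA rose by 1.63 ± 0.14 (log2) from hiPSCs to D70-ROs (edgeR adjusted p = 1.41e-06). From hiPSCs to D150-ROs the change was 0.996 ± 0.10 (adjusted p = 1.51e-06), just under 2-fold, and the gene passed the threshold without hiPSC replicate 1 (1.02) or 2 (1.04), without D150-RO replicate 1 (1.04) or 3 (1.02), and with library totals (1.36). From D70-ROs to D150-ROs it changed by -0.64 ± 0.13, under 2-fold (adjusted p = 0.00196). AL136131.3 lies antisense to VEGFA and is not in the tables.

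The direction of VEGFA between D150-ROs and iMGCs depended on the scaling. In FPKM all iMGC libraries lay below all D150-RO libraries, with D150-ROs 1.65 times as high as P1 and 1.32 times as high as P5 iMGCs. On the counts with TMM factors the change was 0.01 ± 0.06 at P1 (edgeR adjusted p = 0.873) and 0.42 ± 0.06 at P5 (adjusted p = 9.72e-06), both under 2-fold. With library totals it was -0.63 at P1 (adjusted p = 1.02e-07) and -0.27 at P5 (adjusted p = 0.000572), a scaling that moved the median change of all genes by -0.64 and -0.70. The 10 most abundant genes held 4.71% to 5.09% of the counts in D150-RO libraries and 14.6% to 16.5% in iMGC libraries, and the part of this difference in the shift was not tested. No direction is therefore given for VEGFA between D150-ROs and iMGCs.

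**Figure D2:**
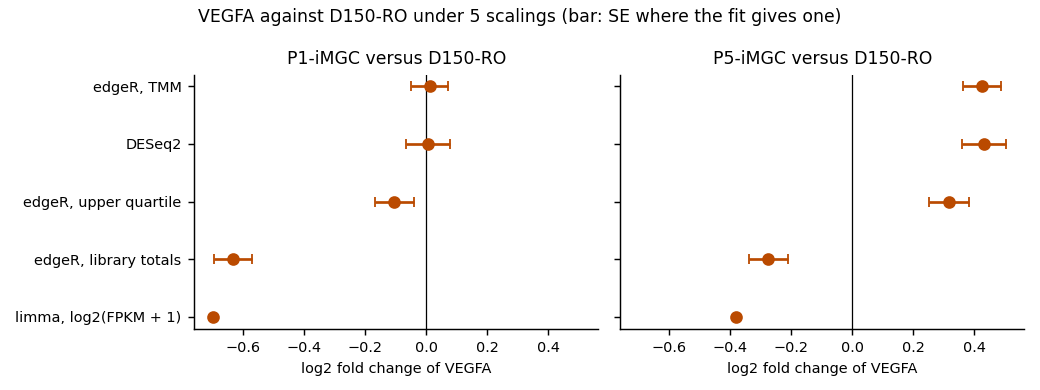
Log2 fold change of VEGFA (horizontal axis) in P1 and P5 iMGCs against D150-ROs under 5 ways of scaling or testing. At P1 the values run from 0.01 with TMM factors or DESeq2 to -0.70 with limma on FPKM, and at P5 from 0.43 with DESeq2 to -0.38 with limma on FPKM.

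VEGFC, the lymphangiogenic relative of VEGFA (chromosome 4, 176683538 to 176792727, minus strand), was low before culture, at 0.36, 0.38 and 0.48 FPKM in the hiPSC libraries, 0.52, 0.30 and 0.80 FPKM in D70-ROs and 1.38, 0.89 and 0.74 FPKM in D150-ROs. In iMGCs it reached 13.0, 10.4 and 12.8 FPKM at P1 and 18.7, 18.6 and 20.1 FPKM at P5. The hiPSC and RO groups overlapped their neighbours, and both iMGC groups stood apart from them and from each other. VEGFC rose by 4.24 ± 0.17 (log2) from D150-ROs to P1 iMGCs (edgeR adjusted p = 1.52e-12) and by 4.96 ± 0.14 to P5 iMGCs (adjusted p = 6.92e-15), with a mean FPKM 12.1 and 19.1 times as high. The difference of 0.72 ± 0.08 between P5 and P1 iMGCs (adjusted p = 4.57e-08) was under 2-fold. VEGFC also owed its place in these tests to the iMGC libraries. AC093801.1 lies antisense to VEGFC and is not in the tables.

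The VEGF receptors split. KDR, the main VEGFA receptor kinase, had 89.2 ± 3.97 FPKM in D150-ROs and 0.467 ± 0.0551 FPKM at P1, a fall of 6.94 ± 0.08 on the log2 scale. FLT1, a receptor that can sequester VEGFA, had 58.8 ± 3.06 FPKM in D150-ROs and 0.0767 ± 0.0551 FPKM at P1, a fall of 8.93 ± 0.13. Both had risen from D70-ROs to D150-ROs, by 3.40 ± 0.16 and 5.55 ± 0.11. The 6 endothelial markers together held 0.42 to 1.18 FPKM in D150-RO libraries, with CDH5 and ERG at 0 in all of them. In D70-RO libraries they held 9.04 to 9.64 FPKM, most of it CLDN5 with a mean of 9.06 FPKM. The part of endothelial cells in the levels of KDR and FLT1 was not tested. The co-receptor NRP1 rose by 3.19 ± 0.07 at P1, and NRP2, which binds VEGFC, rose by 3.28 ± 0.05 at P1 and by 3.89 ± 0.06 at P5, to 148 ± 12.3 FPKM. FLT4, the VEGFC receptor kinase, was highest in hiPSCs with 3.59 ± 1.10 FPKM, fell by 4.44 ± 0.26 from there to D150-ROs, and held 1.08 ± 0.406 FPKM in P1 iMGCs, under the filter. Of the other VEGF ligands, VEGFB rose by 1.01 ± 0.09 at P5, and PGF fell by 2.03 ± 0.21 from hiPSCs to D150-ROs.

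Of 9 genes whose products cut these ligands into their active forms or help in this, 8 were tested against D150-ROs, and 6 rose and PCSK6 fell at each passage, where 20% and 20.8% of all genes were called higher. With library totals 5 rose at P1, without ADAMTS3, and 4 at P5, without FURIN and PLAT. PLAU and CCBE1 passed the filter only through the iMGC libraries and PCSK6 only through those of D150-ROs. These genes had to differ to be tested, so that the counts lend no support. PLAU, the urokinase that yields plasmin, went from 0.730 ± 0.248 FPKM in D150-ROs to 166 ± 4.48 at P1 and 224 ± 4.67 at P5, and PLAT, the other plasminogen activator, rose by 1.89 ± 0.09 at P1. CCBE1 and ADAMTS3, which act together on VEGFC, rose by 5.39 ± 0.18 and 1.49 ± 0.13 at P1, and CCBE1 rose by a further 1.34 ± 0.07 from P1 to P5. The proprotein convertases FURIN and PCSK7 rose by 1.71 ± 0.05 and 1.83 ± 0.05 at P1. PCSK5 was not called, with -0.14 ± 0.10 at P1, and PCSK6 fell by 4.07 ± 0.20.

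**Figure D3:**
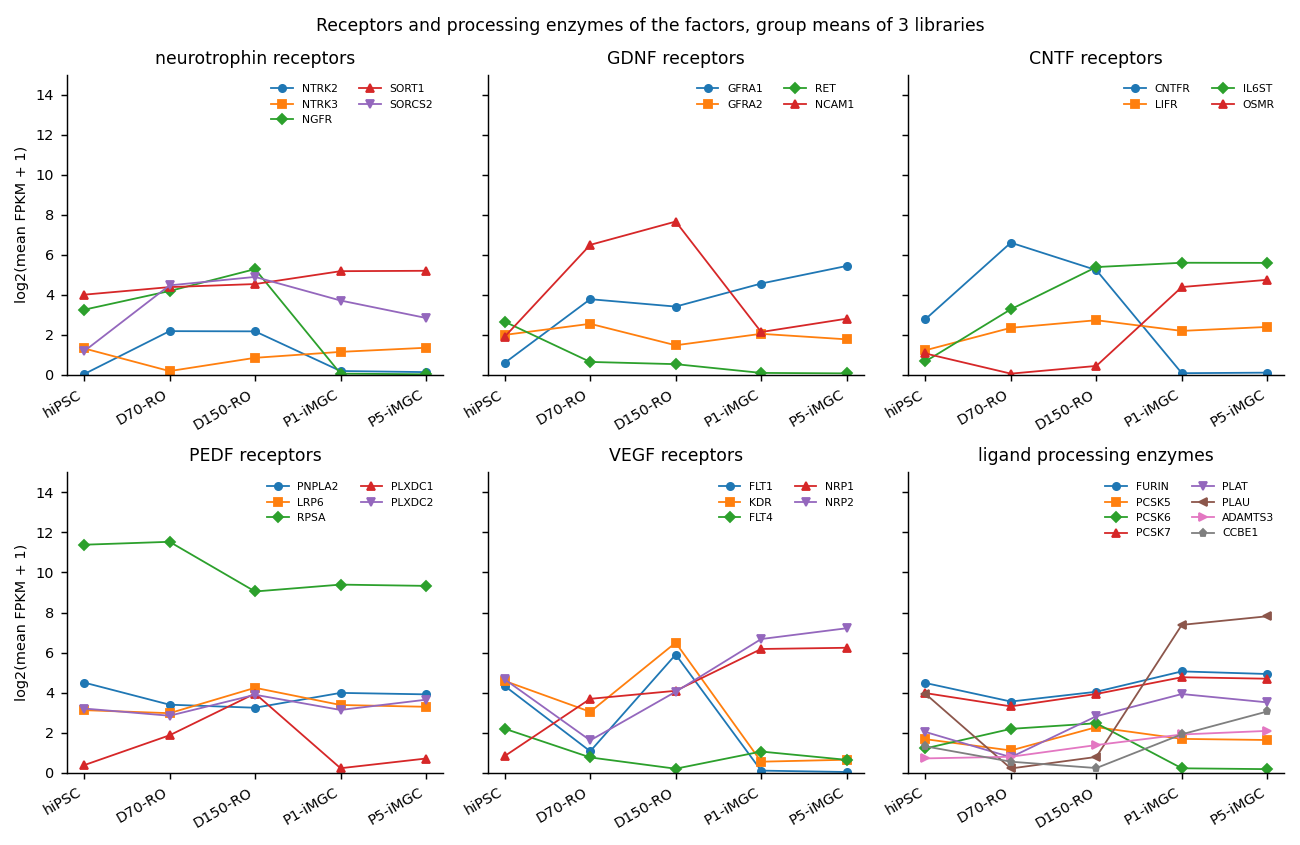
Group means of the receptors and processing genes described here with a mean of at least 1 FPKM in any group, as log2(FPKM + 1) on the vertical axes, with 1 line per gene across the 5 groups. NGFR, CNTFR, NCAM1, KDR and FLT1 drop from D150-ROs to iMGCs, while GFRA1, OSMR, NRP1, NRP2, PLAU and CCBE1 climb.

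ANGPT1, the ligand that stabilises vessels through TEK, stayed under the filter in all 6 comparisons. It stood at 0.19, 0.16 and 0.42 FPKM in the hiPSC libraries, at 0.02, 0 and 0 FPKM in the D70-RO libraries and at 0.14, 0.23 and 0.18 FPKM in those of D150-ROs. The iMGC libraries held 0.29, 0.22 and 0.28 FPKM at P1 and 0.33, 0.29 and 0.48 FPKM at P5. D70-ROs were lowest and apart from the rest, with 2 expected counts in all against 62 in hiPSCs and 36 in D150-ROs. The count ratio was -4.68 (log2, 95% counting interval -7.76 to -2.77) for D70-ROs over hiPSCs and 4.20 (2.24 to 7.30) for D150-ROs over D70-ROs. Without the filter edgeR with TMM factors called ANGPT1 higher than in D150-ROs at P1 (1.03) and at P5 (1.28), on 49 and 55 expected counts against 36. The FPKM of D150-ROs and P1 iMGCs overlapped, and the mean FPKM was 1.44 times as high at P1 and 2.00 times at P5. Library totals were not tried without the filter. TEK had 8.49 ± 0.397 FPKM in hiPSCs and fell by 6.13 ± 0.20 on the log2 scale to D150-ROs. TIE1, its partner receptor and itself an endothelial marker, fell by 5.74 ± 0.38 from hiPSCs to D70-ROs and rose by 5.72 ± 0.41 at P1 and 7.02 ± 0.34 at P5 over D150-ROs, to 3.43 ± 0.733 FPKM, while PECAM1 and VWF had means of 0.0133 and 0.0167 FPKM in P5 iMGCs.

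ANGPTL4 (chromosome 19, 8363289 to 8374373, plus strand) held 3.08, 4.38 and 2.39 FPKM in the hiPSC libraries, 1.78, 2.25 and 1.17 FPKM in the D70-RO libraries and 1.69, 1.66 and 1.72 FPKM in those of D150-ROs. In iMGCs it held 9.72, 8.79 and 8.73 FPKM at P1 and 12.1, 11.8 and 11.6 FPKM at P5. The RO stages overlapped, and hiPSCs, P1 and P5 iMGCs stood above them in this order, each apart from the next. ANGPTL4 fell by 1.23 ± 0.21 (log2) from hiPSCs to D150-ROs (edgeR adjusted p = 0.000152), and with library totals the change was -0.86, under 2-fold. From hiPSCs to D70-ROs the change was -0.87 ± 0.29 (adjusted p = 0.0188), under 2-fold, and it passed without hiPSC replicate 3 (-1.0001) or without D70-RO replicate 2 (-1.11), the shallowest library. ANGPTL4 rose by 3.19 ± 0.13 to P1 iMGCs (adjusted p = 2.11e-12) and by 3.62 ± 0.12 to P5 iMGCs (adjusted p = 5.29e-14), with a mean FPKM 5.37 and 6.99 times as high as in D150-ROs. LPL, the lipase it inhibits, had 5.86 ± 1.31 FPKM in hiPSCs, 0.913 ± 0.364 FPKM in D150-ROs and 3 expected counts in the P1 libraries together. Among the relatives of ANGPTL4, ANGPTL7 rose by 7.93 ± 0.23 at P1 and 9.28 ± 0.18 at P5, to 33.5 ± 0.946 FPKM, and ANGPTL1 fell by 7.28 ± 0.23 at P1 from 17.6 ± 3.02 FPKM. ANGPTL2 rose by 1.59 ± 0.14 at P5. RAB11B-AS1 lies antisense to ANGPTL4 and is not in the tables.

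Differentiation of hiPSCs into ROs called members in both directions. Of the 5 members tested between D70-ROs and hiPSCs, VEGFA, SERPINF1 and NTF3 rose and BDNF fell, where 43.5% of all 12954 genes tested were called, 22.5% as higher and 21.1% as lower, and the median log2 change was 1.22 over these members and 0.02 over all genes. Of the 4 tested between D150-ROs and hiPSCs, SERPINF1 rose and BDNF and ANGPTL4 fell, against 58.8% of all genes called, 29.8% higher and 29% lower, with medians of -0.12 and -0.02. With library totals the split was 2 higher and 1 lower, since VEGFA then passed and ANGPTL4 did not. Of the 4 tested between the RO stages, NTF3 alone was called, lower in D150-ROs, against 33.3% of all genes, 16.6% higher and 16.7% lower, with medians of -0.50 and -0.01. The hiPSC libraries stand in the first of these comparisons and in the second, and the D150-RO libraries in 4 of the 6, so these results share samples. BDNF passed the filter only through hiPSCs and NTF3 only through D70-ROs in these comparisons, so that their calls lend the counts no support.

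At P1, against D150-ROs, BDNF, GDNF, VEGFC, ANGPTL4 and NTF3 rose and SERPINF1 fell among 7 members tested, where 44.1% of all genes were called, 20% higher and 24.1% lower, with a median log2 change of 3.19 over the members and -0.05 over all genes. At P5 the same members were called in the same directions, against 44.6% of all genes, 20.8% higher and 23.9% lower, with medians of 3.62 and -0.05. BDNF, GDNF and VEGFC passed the filter only through their iMGC libraries. NTF3 just passed it, through P1 replicates 1 and 2 or P5 replicates 1 and 3 together with D150-RO replicate 2 (1.01 FPKM). The counts and medians therefore lend no support. With library totals 4 members rose and 1 fell at each passage, since NTF3 was no longer called.

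Between the passages no member was called. Of 7 tested, 0 passed in edgeR, DESeq2 or limma on log2(FPKM + 1), and 5 had an unadjusted p under 0.05, where 2.92% of all genes were called, 1.94% higher and 0.977% lower in P5. The largest differences among the members were 0.77 ± 0.17 for SERPINF1 (adjusted p = 0.00114) and 0.72 ± 0.08 for VEGFC, followed by 0.44 ± 0.08 for ANGPTL4 (adjusted p = 0.00015) and 0.42 ± 0.05 for VEGFA (adjusted p = 7.26e-08), all higher at P5. BDNF was lower at P5 by a change of -0.16 ± 0.05 (adjusted p = 0.0299). GDNF and NTF3 differed by 0.14 ± 0.09 (adjusted p = 0.265) and 0.04 ± 0.28 (adjusted p = 0.931). The groups stood apart in FPKM for 75.5% of all genes between D70-ROs and hiPSCs, 87.4% between D150-ROs and hiPSCs, 77.2% between the RO stages, 87.9% and 88.5% between D150-ROs and P1 or P5 iMGCs, and 39.5% between the passages, which is the background for each statement above that groups were apart.

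**Figure D4:**
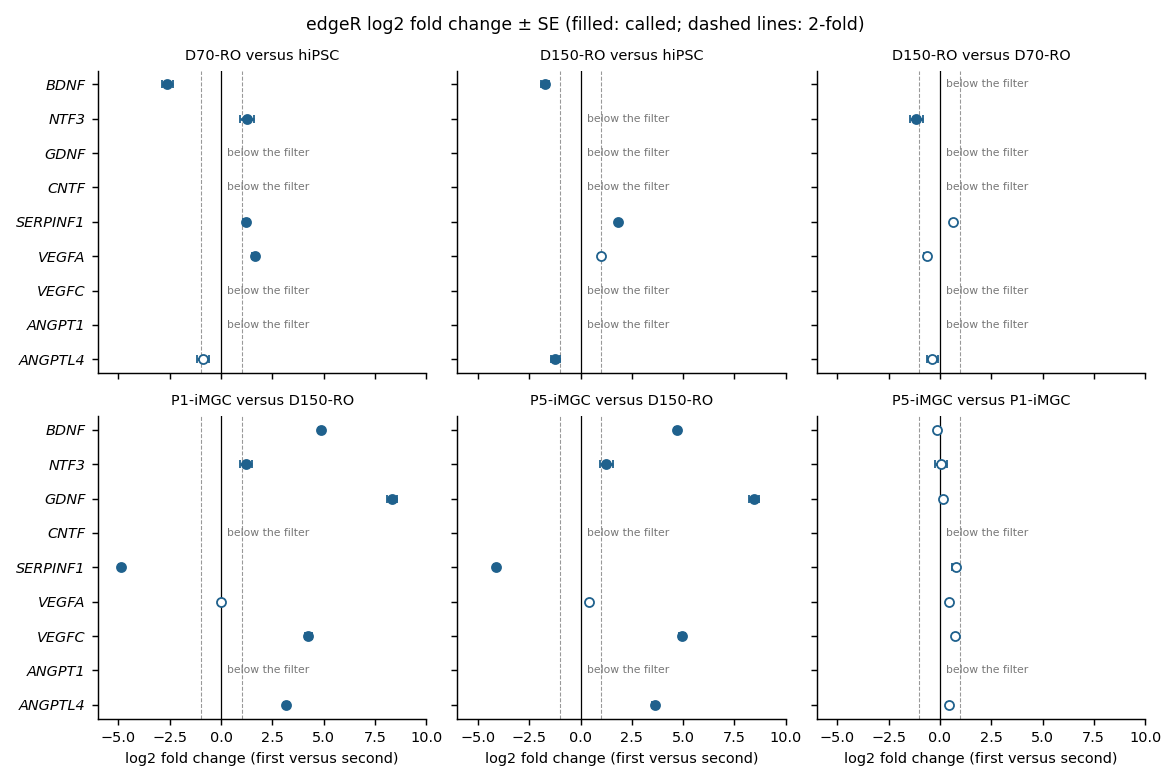
Log2 fold change with its SE (horizontal axes) of the members in the 6 comparisons, from edgeR, with filled points for called genes, open points for genes that were not called, and dashed lines at a 2-fold change. GDNF lies farthest to the right at 8.33 and 8.46 and SERPINF1 farthest to the left at -4.89 and -4.12, and all points between the passages lie inside the dashed lines.

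The pathways around the members were followed through 96 partner genes, which are receptors, other ligands, enzymes or other processing genes, and upstream regulators. Between D150-ROs and P1 iMGCs 69 of them were tested, of which 29 rose and 15 fell, and at P5 32 of 70 rose and 14 fell. Of all genes tested, 20% were called higher and 24.1% lower at P1, and 20.8% and 23.9% at P5. Several risers, such as OSMR, PLAU, CCBE1, TIE1, ANGPTL7 and PPARG, had a mean under 1 FPKM in D150-ROs. Several fallers, such as NGFR, CNTFR, KDR and FLT1, had one under 1 FPKM in iMGCs. These genes passed the filter through 1 group only and had to differ to be tested, so that the counts lend no support. With library totals 24 partner genes were higher and 21 lower at P1, and 23 higher and 20 lower at P5. The rises of SORT1, PNPLA2 and BNIP3 at both passages and of ADAMTS3 and PGK1 at P1 then stayed under 2-fold. So did those of GFRA2, FURIN, PLAT, VEGFB, ANGPTL2 and PLIN2 at P5, all with log2 changes of 0.31 to 0.92. ARNT and ARNT2 at both passages and SORCS2, PLXDC2, PPARA and VLDLR at P1 were newly called lower. At P5 LRP6, NDRG1, KDM3A and VHL were as well, and these changes ran from -1.68 to -1.06. In the earlier comparisons 23 of 73 rose and 23 fell from hiPSCs to D70-ROs, 26 of 74 rose and 26 fell from hiPSCs to D150-ROs, and 19 of 66 rose and 20 fell between the RO stages. The shares of all genes called higher and lower there were 22.5% and 21.1%, 29.8% and 29%, and 16.6% and 16.7%. Between the passages 5 of 61 rose, namely IL6, EPAS1, ANGPTL7, CCBE1 and TIE1, and none fell, where 1.94% of all genes were called higher and 0.977% lower. Pleiotrophin (PTN), a heparin-binding growth factor, fell by 5.11 ± 0.14 at P1, and its relative MDK fell by 4.22 ± 0.14 between the RO stages.

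Genes that sense oxygen or respond to its lack, of which VEGFA and ANGPTL4 are known targets, did not move as 1 block. HIF1A, which encodes the oxygen-regulated transcription factor, rose by 2.80 ± 0.05 from D150-ROs to 676 ± 18.3 FPKM at P1, and EPAS1, its relative, rose by 2.32 ± 0.08 at P5, while EGLN3, a prolyl hydroxylase that marks them for decay, fell by 3.05 ± 0.20 at P1. Of 12 other hypoxia targets, 11 were tested, of which 5 rose and 2 fell at P1 and 5 rose and none fell at P5, where 20% and 20.8% of all genes were called higher and 24.1% and 23.9% lower. With library totals 3 rose and 3 fell at P1 and 4 rose and 2 fell at P5. LDHA, ADM and PGK1 rose by 2.91 ± 0.05, 2.14 ± 0.12 and 1.51 ± 0.05 at P1, and NDRG1 fell by 1.52 ± 0.06. Between the RO stages 8 of these 11 fell and none rose, where 16.7% of all genes were called lower, and with library totals 7 fell and NDRG1 rose (1.11). Of 7 genes of lipid sensing through PPAR receptors, which are known to control ANGPTL4, 6 were tested at P1, where 2 rose and 1 fell, or 2 and 2 with library totals. PPARG rose by 4.52 ± 0.27 to 4.74 ± 0.291 FPKM and CPT1A, the carnitine transferase of fatty acid import, fell by 3.14 ± 0.08.

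The genes whose pattern was most like each member were found among 14087 genes with a mean of at least 1 FPKM in any group, by Pearson's r of log2(FPKM + 1) over the 15 libraries, which fall into 5 groups, so that r mostly reflects group means and is given as a description. BDNF was most like PHLDB2, MAN2A1 and FN1 (r = 0.996 for each), and GDNF most like ITGB1 (0.996), CALU (0.995) and DLC1 (0.994). SERPINF1 was most like OTX2 (0.998), RNF157 (0.997) and MCF2L (0.996), of which OTX2 had a mean of 447 FPKM in D150-ROs and 0.283 FPKM in P1 iMGCs. VEGFC was most like ALPK2 (0.994), ITGB3 (0.993) and TENM2 (0.993), and ANGPTL4 most like MMP14 (0.988), AJUBA (0.987) and SLC20A2 (0.987). The likeness was lower for VEGFA, with MXD4 (0.985), SEMA5A (0.976) and PAX6 (0.966), and for NTF3, with MPC2 (0.889), TUSC3 (0.887) and STBD1 (0.885). CNTF and ANGPT1 had no group mean of 1 FPKM and were not compared.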

How the data were processed

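The 15 libraries were poly(A) RNA-seq of hiPSCs, the NR layers of D70-ROs and D150-ROs, and P1 and P5 iMGCs. The authors aligned reads with HISAT2, assembled with StringTie and quantified with RSEM, with versions and genome build not given in the sources used here. The deposited expected counts are RSEM estimates per gene, and the deposited FPKM values were scaled by the authors for transcript length and mapped fragments. A quartile-based batch adjustment named for the series could have altered them. The 6 iMGC columns with no passage in their names were not used. Expected counts were rounded and tested with edgeR 4.0.16 in R 4.3.3 (TMM factors, quasi-likelihood test, Benjamini-Hochberg adjustment), with each of the 6 comparisons fitted alone over genes at 1 FPKM in at least 3 libraries. Alternatives were DESeq2 1.42.0, limma 3.58.1 on log2(FPKM + 1) or with 0.1, other filters and scalings, a replicate block, 1 fit to all 15 libraries, a test against a 2-fold change, and leaving out each library. All replicate pairs differed by more than counting noise. Fits were checked on simulated counts. Count intervals are 95% and cover counting error only.

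Members and gene lists were chosen with earlier results of these data known. Genes are named by rule, being all members, all receptors and processing genes with a group mean of at least 1 FPKM, and up to 4 called genes per other list with the largest change, of which some are not reported here. The cell type markers named were picked after their values had been seen. Positions are those of GENCODE 29, in which all 19684 identifiers were found.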

Additional observations from a re-analysis of the deposited data

How the results depend on the processing

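Between D150-ROs and iMGCs, the calls of BDNF, GDNF, VEGFC, ANGPTL4 and SERPINF1 held their direction and their side of the threshold under all 16 alternatives at each passage. Of the members called between D70-ROs and hiPSCs (4), 2 were left when tested against a 2-fold change. Between the RO stages the 1 call became 2 without the filter and 0 with library totals, with limma at either pseudocount and with the test against a 2-fold change. The partner genes called between the passages rose from 5 to 8 without the filter. VEGFA at P1 against D150-ROs changed sign with upper-quartile scaling (-0.10), library totals (-0.63) and limma (-0.70 and -0.71), and leaving out 1 library gave -0.045 to 0.079. At P5 it changed sign with library totals (-0.27) and limma (-0.38 and -0.39). Small differences that were not called also changed sign, namely ANGPTL4 between the RO stages with limma at 0.1 (0.010), GDNF between the passages with limma (-0.041 and -0.045), and NTF3 between the passages with library totals (-0.016) and limma (-0.0080 and -0.015), where leaving out 1 library gave -0.12 to 0.20. The cause was not tested. Deviations of libraries from their group means were correlated between replicates of the same number in 2 groups, with values of -0.08 to 0.35. Of 18 such pairs, 2 were over 0.1, both between D70-ROs and hiPSCs (0.35 for replicate 2 and 0.14 for replicate 3). With the replicate block 4, 3, 1, 6, 6 and 0 members and 47, 53, 40, 44, 46 and 5 partner genes were called in the 6 comparisons. Depth limits CNTF and ANGPT1, which rest on at most 38 and 62 expected counts per group.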
